A study of Mus musculus with 6 samples.

Results

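The genes described here are those of the type 2 cytokine locus on mouse chromosome 11, chosen by name: *Il4*, *Il5* and *Il13*, the further cytokine genes *Csf2* and *Il3*, and the genes that lie among or beside them, *Rad50*, *Kif3a*, *Irf1*, *Slc22a5* and *P4ha2*. Of these 10 genes, 9 were among the 16381 genes with a value, and *Il3* was not analysed here. The RNA came from aILC2s, the group 2 innate lymphoid cells sorted from lungs of wild-type BALB/c mice that had received 0.5 µg of recombinant IL-33 per day for 3 days, and both groups share that challenge. The sorted cells were kept ex vivo for 24 h with 250 µM melatonin (3 samples) or with the same solvent alone, DMSO, called vehicle (3 samples). The methods describe female mice of 6 to 8 weeks and a gate of CD45+, lineage-negative, ST2+ and CD127+ cells whose lineage antibodies included CD3, CD11b, CD11c, CD335 and the IgE receptor. They do not say how many mice stand behind a sample, and the labels do not say that the samples are separate cultures, so p-values then measure only the spread between these samples. Each value is a normalized count, the number of reads assigned to a gene divided by one size factor per library.

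In these cells, melatonin was accompanied by lower transcript levels of all 4 cytokine genes that had a value, and by far the largest fall was that of *Il13*, to 21.8% of its vehicle mean. *Il4*, *Il5* and *Csf2* kept between 54.9% and 60.1% of theirs. By the test used here 24.7% of all genes were lower and 24.5% higher with melatonin, and the call of *Il4* was lost in 3 of 18 alternatives. None of the 5 genes that lie between or beside the cytokine genes fell past the threshold. *Rad50* was higher by 0.26 on the log2 scale, a call lost in 7 of the 18. Of the other genes between the cytokine genes, *4933405E24Rik*, of low level, did fall. The antisense *Gm12214*, also of low level, had lower values too. It lies within *Il5*, and reads of the stretch they share cannot be told apart. Within the cytokines, the ratio of *Il13* to each of the other 3 was lower in every melatonin library than in every vehicle library. These ratios share *Il13* and are not separate observations. For each the exact two-sided permutation test gave 0.1, the lowest it can give.

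Type 2 cytokines are the effector products through which ILC2s and T helper 2 cells drive allergic inflammation of the airways. IL-5 sustains eosinophils, IL-13 acts on airway epithelium and smooth muscle to cause mucus production and hyperreactivity, and IL-4 acts on B cells and T cells. The 3 genes lie together in mammals, with *Rad50* between *Il13* and *Il5*, and control elements within the *Rad50* gene are known to act on the cytokine genes at a distance, under factors such as GATA3, STAT6, IRF4 and the NFAT family. *Csf2*, encoding GM-CSF, and *Il3* form a second cytokine pair farther along the same chromosome.

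The start sites of these genes span both sides of *Il13* on GRCm39 (the build that the authors name as mm39). Counted from the *Il13* start, *Il4* starts at −16.0 kb and *Kif3a* at −67.4 kb, and on the other side *Rad50* starts at 72.6 kb, *Il5* at 86.1 kb, *Irf1* at 135 kb, *Slc22a5* at 257 kb, *P4ha2* at 466 kb, *Csf2* at 615 kb and *Il3* at 633 kb. All 10 are protein-coding genes. The bases just before the start sites of the 3 type 2 cytokine genes are shown because their transcripts fell, with those of *Irf1* beside them as a gene of the same stretch that did not pass the threshold. Each sequence is RefSeq's promoter (table build GRCm38.p6), cut to the 250 bases before the RefSeq start and matched base for base to GRCm39. The *Il13* window is chr11:53525530-53525779 on the minus strand, the *Il5* window chr11:53611371-53611620 on the plus strand, the *Il4* window chr11:53509493-53509742 on the minus strand, and the *Irf1* window chr11:53660591-53660840 on the plus strand. Capitals mark every match, on either strand, to the motifs described in the next paragraph.
Il13: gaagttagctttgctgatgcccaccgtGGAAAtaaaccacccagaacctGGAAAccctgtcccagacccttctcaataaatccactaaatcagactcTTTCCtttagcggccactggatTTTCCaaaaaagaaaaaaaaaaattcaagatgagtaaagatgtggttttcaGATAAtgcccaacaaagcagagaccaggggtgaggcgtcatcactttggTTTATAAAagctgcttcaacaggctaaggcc
Il5: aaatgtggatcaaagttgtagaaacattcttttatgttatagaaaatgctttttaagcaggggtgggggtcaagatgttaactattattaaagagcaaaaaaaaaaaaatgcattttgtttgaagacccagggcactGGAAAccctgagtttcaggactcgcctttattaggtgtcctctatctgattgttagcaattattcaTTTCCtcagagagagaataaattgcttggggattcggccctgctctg
Il4: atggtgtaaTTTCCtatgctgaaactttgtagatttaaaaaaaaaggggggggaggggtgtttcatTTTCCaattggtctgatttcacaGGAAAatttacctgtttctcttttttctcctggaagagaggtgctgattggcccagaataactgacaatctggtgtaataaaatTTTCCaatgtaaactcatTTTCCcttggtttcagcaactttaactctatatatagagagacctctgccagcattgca
Irf1: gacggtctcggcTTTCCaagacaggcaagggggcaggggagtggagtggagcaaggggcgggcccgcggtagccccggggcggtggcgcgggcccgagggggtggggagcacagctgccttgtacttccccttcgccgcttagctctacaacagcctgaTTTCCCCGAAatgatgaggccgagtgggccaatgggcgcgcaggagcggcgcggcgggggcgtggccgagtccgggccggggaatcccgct

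The letters searched were GATAA (GATA factors), GGAAA (the core of NFAT sites), TATAAA (the TATA box), TTCNNNGAA (STAT factors), TGANTCA (AP-1) and TGACNNNGC (the core of the antioxidant response element), in the 250 bases before the start and on both strands. The *Il13* window holds 4 matches to GGAAA, 1 to GATAA beginning 80 bases before the start, and TATAAA on each strand in 1 overlapping stretch that begins 31 bases before the start. In the *Il4* window there are 5 matches to GGAAA, and in the *Il5* window there are 2. The *Irf1* window holds 2 matches to GGAAA, 1 of which overlaps its single match to TTCNNNGAA. No window of the 9 members that matched the RefSeq table holds TGANTCA or TGACNNNGC, which says only that these letters are absent from the windows. Over the 32851 promoters of the same length in that table, 55.6% hold GGAAA, 22.6% GATAA, 12.4% TATAAA, 10.2% TGACNNNGC, 7.02% TTCNNNGAA and 6.75% TGANTCA, so a match to GGAAA is common. In base composition the windows form a range: G and C make up 37.6% of the *Il4* and *Il5* windows, 43.2% of that of *Il13*, 50% for *Il3*, 55.2% for *Csf2*, 58.8% for *Kif3a*, 70.0% for *P4ha2*, 71.2% for *Irf1* and 73.6% for *Slc22a5*. The RefSeq start lies 232 bases from the GENCODE start for *Csf2*, 81 for *Slc22a5* and 28 for *Kif3a*, so these windows are offset from the start used for distances. *Rad50* had no entry.

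The libraries held between 17056267 and 20511700 estimated counts. *Xist*, which is transcribed from an inactive X chromosome, had values of 579 (melatonin replicate 2) and 1091 (melatonin replicate 3) and of 13.6 or less in the other 4 libraries, while the Y-linked *Kdm5d*, *Uty*, *Ddx3y* and *Eif2s3y* were at 298 or more in those 4 libraries and at 0 in melatonin replicates 2 and 3, which goes against a single sex in all samples. Results for the members are therefore also given for melatonin replicate 1 alone against vehicle, a comparison chosen after the data had been seen, as values with no test. The counts over 18 alternatives include a limma fit of that comparison, which assumes that the lone library varies as the vehicle libraries do, whereas the melatonin libraries varied more (for *Il5* by 17.8% against 4.47% and for *Il13* by 24.6% against 5.53%, as coefficients of variation), so passing there is no support. By the labels, melatonin libraries are numbered from 20 to 22 and vehicle ones from 32 to 34, and a batch along that numbering and the treatment cannot be told apart. Among the ILC2 markers, *Gata3* (19365 ± 321 (SD, n = 3) normalized counts in vehicle, 20469 ± 3605 in melatonin), *Ptprc* and *Icos* were abundant in both groups. Of the other ILC2 markers reported, *Klrg1*, *Thy1*, *Areg* and *Il7r* were lower with melatonin and *Il1rl1* and *Rora* were higher, by the limma test described next.

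The limma test was run on log2 values (normalized count plus 1) of 14419 genes, those that reached 10 in any library, with p-values adjusted over all of them and a threshold of 0.05. By this test 24.7% of all genes were lower and 24.5% were higher with melatonin. Of the 9 members, 4 were lower, 1 was higher and 4 did not pass. The median log2 fold change was −0.85 for the 4 cytokine genes and 0.17 for the 5 others, against −0.00 for all genes tested. With so many genes called in each direction, a single call sets none of the members apart from the rest of the transcriptome, and the sizes of the differences are given for that reason. The transcripts were measured in bulk, so fewer cells that make a cytokine and less RNA per cell cannot be told apart.

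**Figure D1:**
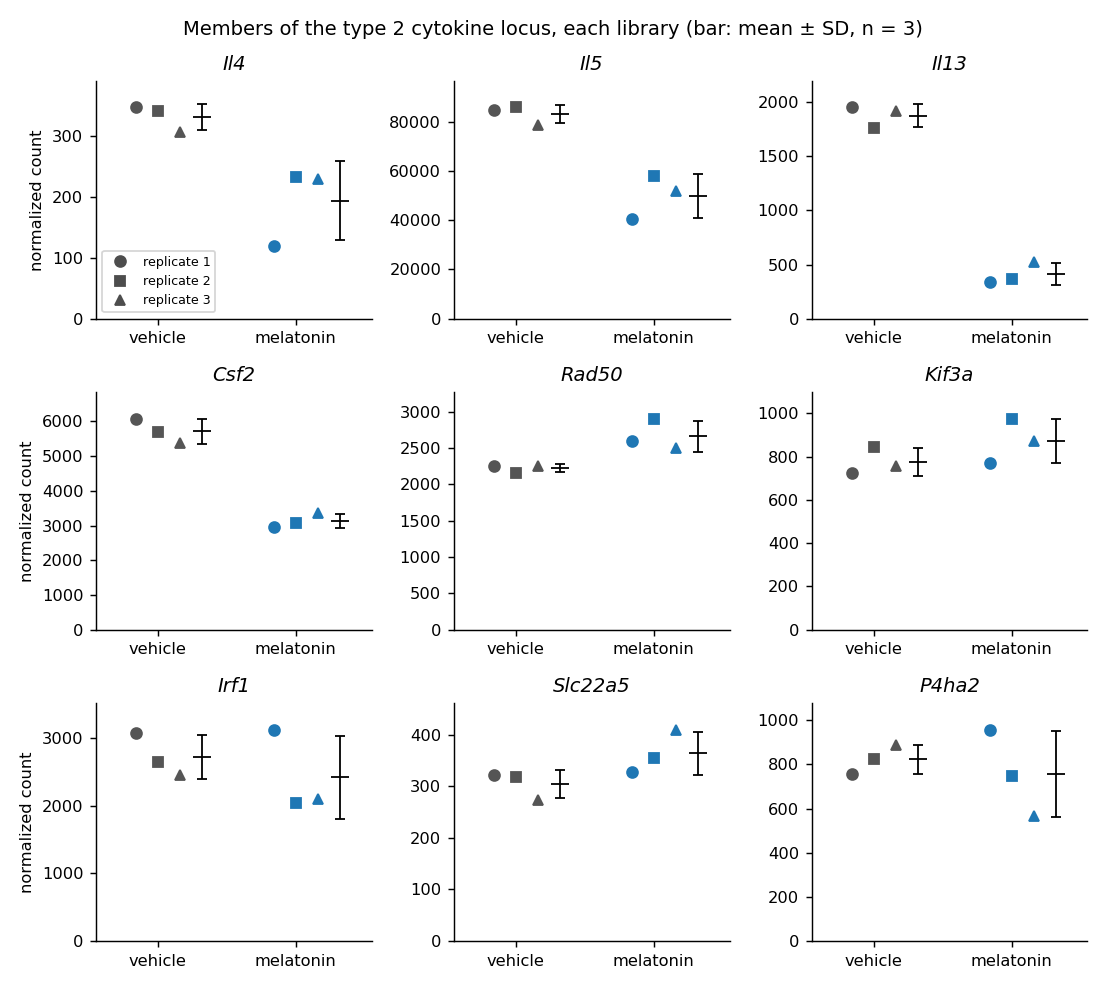
Normalized counts of the 9 members with a value, one panel each with its own axis starting at 0; points are single libraries with a marker shape per replicate number (numbers do not pair the groups), and the bar is the mean ± SD of 3. Melatonin and vehicle libraries are apart in the panels of *Il4*, *Il5*, *Il13*, *Csf2*, *Rad50* and *Slc22a5* and overlap in those of *Kif3a*, *Irf1* and *P4ha2*.

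*Il13* (ENSMUSG00000020383, chromosome 11 from 53522151 to 53525529, minus strand) encodes the cytokine that links ILC2s to mucus production and airway hyperreactivity. It was at 1952, 1758 and 1918 normalized counts in vehicle replicates 1, 2 and 3 and at 339.9, 363 and 525 in melatonin replicates 1, 2 and 3. The highest melatonin library was far below the lowest vehicle library, and the groups did not overlap. The means were 1876 ± 104 (SD, n = 3) and 409 ± 101 (SD, n = 3), a 4.58-fold difference. The difference on the log2 scale was −2.22 (SE 0.16, limma adjusted p = 3.1e-05), and 447 of the 14419 genes tested had a lower value. Among all genes ordered by count within a library, *Il13* stood between places 2309 and 2632 in vehicle and between places 6514 and 7715 in melatonin.

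*Il5* (ENSMUSG00000036117, chromosome 11 from 53611621 to 53615933, plus strand) encodes the growth and survival factor of eosinophils. Its normalized counts were 84576, 85795 and 78846 in vehicle and 40304, 57764 and 51783 in melatonin. Every melatonin library was below every vehicle library, and melatonin replicate 1 was the lowest. *Il5* took place 6, 6 and 7 among all genes in the vehicle libraries and places 23, 12 and 14 in the melatonin libraries, so it was still one of the most abundant transcripts after its fall. It supplied between 0.418% and 0.446% of all normalized counts of a vehicle library and between 0.216% and 0.310% of those of a melatonin library. The log2 fold change was −0.75 (SE 0.13, limma adjusted p = 0.0020). An antisense long noncoding RNA, *Gm12214*, shares 417 exonic bases with *Il5*, and since the kit does not mark the strand, reads of this stretch cannot be told apart. *Gm12214* was at 104, 102 and 90.4 normalized counts in vehicle and at 40.5, 27.7 and 69.7 in melatonin, with no overlap between the groups (log2 fold change −1.19, limma adjusted p = 0.014).

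*Il4* (ENSMUSG00000000869, chromosome 11 from 53493809 to 53509496, minus strand) encodes the cytokine that drives T helper 2 differentiation and IgE class switching. In vehicle it was the least abundant of the 4 cytokine genes per length of transcript. Vehicle libraries had 346, 340.1 and 306 normalized counts and melatonin libraries 119, 232 and 229. Melatonin replicate 1 was well below the other two melatonin libraries, and the groups did not overlap. The log2 fold change was −0.84 (SE 0.24, limma adjusted p = 0.020). This is the least certain of the 4 falls: the call was lost without the mean-variance trend (limma adjusted p = 0.059) and without vehicle replicate 1 (0.057) or vehicle replicate 2 (0.066). Over the alternatives other than melatonin replicate 1 alone, the limma adjusted p was between 0.0069 and 0.066. Without melatonin replicate 1 the log2 fold change was −0.52, and for that library alone it was −1.47. The lowest library held 127 estimated counts of *Il4*, for which counting alone gives an error of 8.87%. At its far end *Il4* shares 179 exonic bases with *Kif3a* on the other strand, outside the canonical *Il4* transcript.

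*Csf2* (ENSMUSG00000018916, chromosome 11 from 54138097 to 54140493, minus strand) encodes GM-CSF, which acts on eosinophils, macrophages and dendritic cells. Vehicle libraries had 6084, 5703 and 5369.8 normalized counts, and melatonin libraries had 2973, 3081 and 3363. The groups did not overlap, and both were tight, with a coefficient of variation of 6.25% in vehicle and 6.41% in melatonin. Its fall, as a log2 fold change, was −0.87 (SE 0.08, limma adjusted p = 1.1e-04). Although *Csf2* starts 615 kb from *Il13*, its difference was close in size to those of *Il4* and *Il5*.

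All 4 cytokine genes thus had each melatonin library below each vehicle library, where 30.3% of all genes tested did so. For each of them the exact two-sided permutation test gave 0.1, the smallest p that 3 samples against 3 allow. In each of the 4, melatonin replicate 1 was the lowest melatonin library. Its distance below the mean of the other two melatonin libraries, on the log2 scale, was −0.95 for *Il4*, −0.44 for *Il5*, −0.36 for *Il13* and −0.11 for *Csf2*. For that library alone against vehicle the log2 differences were −2.46 for *Il13*, −1.04 for *Il5* and −0.94 for *Csf2*, and without it they were −2.10, −0.60 and −0.83, the latter 3 past the threshold in limma.

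Several transcripts listed as markers of other cell types differed between the groups in the same libraries. Summed over the 4 natural killer cell markers of the list, all with values, normalized counts were between 5802 and 7136 in vehicle and between 56.0 and 194 in melatonin, most of it *Gzma*. *Ncr1*, which encodes the CD335 of the lineage gate, was between 101 and 114 in vehicle and at 0, 0 and 1.01 in melatonin. The others on that list were near the floor, *Klrb1c* at 9.37 or less and *Eomes* at 5.60 or less in every library. For T cells, 5 of 8 markers had values and summed to between 5930 and 6418 in vehicle and between 2127 and 3085 in melatonin. By limma 4 of the 5 were lower, against 24.7% of all genes tested. The vehicle and melatonin means were 3558 and 1455 for *Trbc2*, 1449 and 474 for *Trbc1* and 1062 and 536 for *Cd3g*. *Trac*, also lower, was at 13.1 or less everywhere, *Foxp3* did not pass, and *Cd4*, *Cd8a* and *Cd8b1* were not listed. For myeloid cells, 7 of 8 had values and summed to between 4000 and 4865 in vehicle and between 418 and 2453 in melatonin. For epithelial cells, 4 of 5 markers had values and summed to between 917 and 2155 in vehicle and between 1040 and 1260 in melatonin. Within that sum *Scgb1a1* went from between 21.5 and 1045 to 1.01 or less and *Sftpc* from between 122 and 389 to between 3.02 and 6.54, while *Epcam* was higher, at between 1016 and 1229.8 against between 623 and 745. Which cells these transcripts came from was not tested, nor was the part of other cells in the cytokine differences. Markers of mast cells and basophils, which also make *Il4* and *Il13*, summed to between 38.4 and 98.6 in vehicle and between 46.7 and 98.5 in melatonin over the 5 of 8 with values, and the basophil protease *Mcpt8* was at 3.15 or less in every library.

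*Rad50* (ENSMUSG00000020380, chromosome 11 from 53539837 to 53598154, minus strand) encodes a subunit of the MRN complex that acts in repair of DNA double-strand breaks, and its body holds the locus control region of the type 2 cytokines. Vehicle libraries had 2250.4, 2158 and 2258 normalized counts and melatonin libraries 2591, 2904 and 2497. All melatonin libraries were higher, by a small margin, and vehicle varied by only 2.51%. The log2 fold change was 0.26 (SE 0.08, limma adjusted p = 0.028). This call was lost in 7 of 18 alternatives, among them without each of vehicle replicates 1, 2 and 3 (limma adjusted p = 0.072, 0.10 and 0.066) and without melatonin replicate 2 (0.087), with p between 0.0064 and 0.10 over the 18. For melatonin replicate 1 alone the log2 difference was 0.22. *Rad50* lies between *Il13* and *Il5*, so the 2 cytokine genes that flank it fell while its own level did not.

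*Kif3a* (ENSMUSG00000018395, chromosome 11 from 53458168 to 53495071, plus strand) encodes a kinesin motor needed for cilia, and lies on the other side of *Il4*. Vehicle libraries had 722, 844 and 759 normalized counts and melatonin libraries 772, 976 and 873. The groups overlapped. Its log2 fold change of 0.17 (SE 0.11) did not pass (limma adjusted p = 0.24), and was −0.00 for melatonin replicate 1 alone.

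*Irf1* (ENSMUSG00000018899, chromosome 11 from 53660812 to 53669200, plus strand) encodes an interferon-induced transcription factor of type 1 immunity. Vehicle libraries had 3083, 2646.5 and 2451 normalized counts and melatonin libraries 3127, 2044 and 2097. Here the melatonin libraries split: replicate 1 was the highest of all 6 and replicates 2 and 3 were the lowest. The log2 fold change of −0.19 (SE 0.16, limma adjusted p = 0.35) did not pass, but it was −0.39 without melatonin replicate 1 (limma adjusted p = 0.012) and 0.20 for that library alone, with p between 0.012 and 0.72 over the 18 alternatives. Replicate 1 was also the only melatonin library low in *Xist*, as all the vehicle libraries were, and any part of this in *Irf1* was not tested. Reads of *Irf1* can also be shared with antisense transcripts, of which *Gm17334* overlaps 419 bases of its canonical transcript and had group means of 113 and 118.

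*Slc22a5* (ENSMUSG00000018900, chromosome 11 from 53753315 to 53782703, minus strand) encodes the carnitine transporter OCTN2, which brings carnitine into cells for fatty acid oxidation. Vehicle libraries had 321, 318 and 274 normalized counts and melatonin libraries 327, 355 and 409.5. All melatonin libraries were above all vehicle libraries, but by a margin smaller than the spread within each group. With a log2 fold change of 0.25 (SE 0.13), *Slc22a5* did not pass (limma adjusted p = 0.13). The value was 0.17 without melatonin replicate 3 and 0.11 for melatonin replicate 1 alone. With *Rad50* this made 2 of 5 neighbours with every melatonin library higher, where 30.0% of all genes tested had that order.

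*P4ha2* (ENSMUSG00000018906, chromosome 11 from 53981553 to 54022494, plus strand) encodes a catalytic subunit of the prolyl 4-hydroxylase of collagen. Vehicle libraries had 754, 825 and 888 normalized counts and melatonin libraries 957, 747 and 566. As with *Irf1*, melatonin replicate 1 was the highest of all libraries and the groups overlapped. Its log2 fold change of −0.15 (SE 0.17) did not pass (limma adjusted p = 0.50), and its sign turned without melatonin replicate 3 (0.04) and for melatonin replicate 1 alone (0.22).

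**Figure D2:**
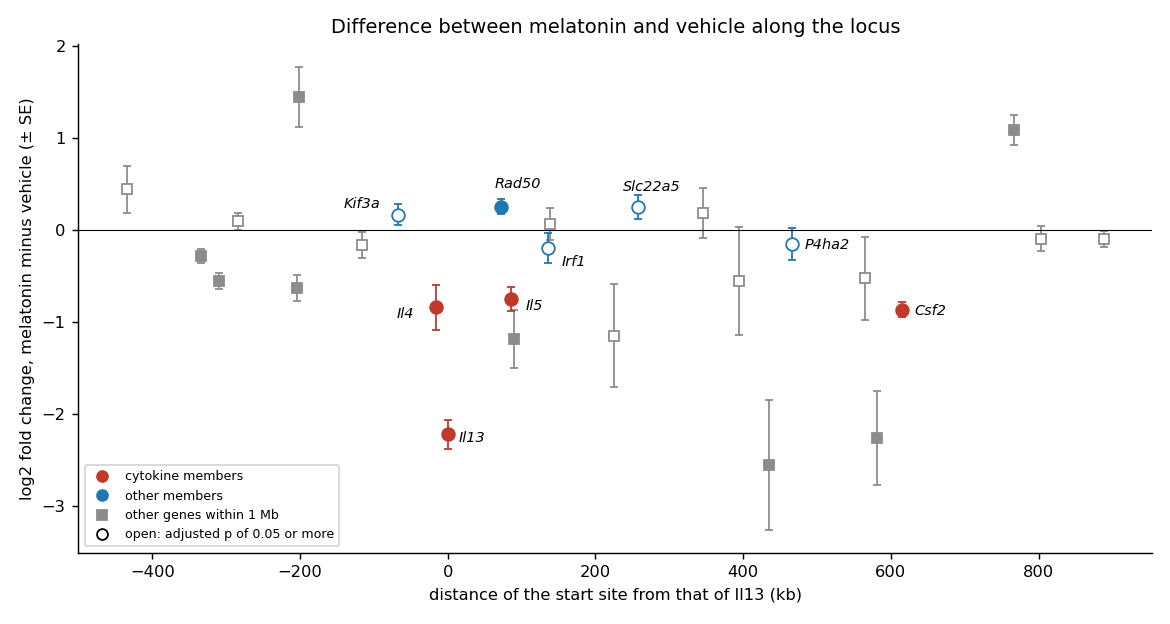
Log2 fold change (melatonin minus vehicle, ± SE from limma) against the distance in kb of each gene's start site from that of *Il13*, for the 9 members and the 18 other tested genes within 1 Mb. Filled points have an adjusted p under 0.05. The 4 cytokine genes lie between −2.22 and −0.75 and the 5 other members, which lie among or beside them, between −0.19 and 0.26 and the point at −2.55 is the fitted value of *Pdlim4*, a gene near 0 in melatonin.

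Beyond the members, 80 annotated genes have a start site within 1 Mb of that of *Il13*, 21 of them had values and 18 could be tested. Of these, 6 were lower and 2 were higher, or 33.3% and 11.1%, against 24.7% and 24.5% of all genes tested, and their median log2 fold change was −0.22, or −0.10 over the 9 with a mean of at least 100 and −0.14 with quantile normalization. Of the 18, 4 reached the minimum value of 10 in only 1 of the groups, *Pdlim4* being the 1 of them called, and without these 4 the counts were 5 lower and 2 higher of 14. Both counts of lower genes include *Gm12214*, which shares 417 exonic bases with *Il5*, so its reads there cannot be told from those of a member. The 3 called genes nearest to *Il13* on the *Il4* side were *Gdf9*, *Uqcrq* and *Zcchc10*. *Uqcrq*, which encodes a subunit of respiratory complex III, was at 5206, 4916 and 4858 normalized counts in vehicle and at 2518, 3419.7 and 3925 in melatonin (log2 fold change −0.63, SE 0.14, limma adjusted p = 0.0070). *Zcchc10* was at 1565, 1503 and 1522 in vehicle and at 1157, 1026 and 959 in melatonin (log2 fold change −0.55, SE 0.09, limma adjusted p = 0.0014). Neither gene had overlapping groups, and with all samples both falls were smaller than those of the cytokine genes. That order was not tested and did not hold without melatonin replicate 1. There *Zcchc10* was at −0.62, *Il5* at −0.60 and *Il4* at −0.52. *Gdf9*, which starts beside *Uqcrq*, rose from between 8.40 and 12.2 to between 27.3 and 31.2 normalized counts (log2 fold change 1.45, limma adjusted p = 0.0062), at a level where few reads decide the value.

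On the *Il5* side, the 3 called genes nearest to *Il13* were *Gm12214*, described with *Il5*, *Pdlim4* and *4933405E24Rik*. *Pdlim4*, which encodes a cytoskeletal adaptor, was at 10.3, 5.62 and 4.20 normalized counts in vehicle and at 0.934, 0 and 0 in melatonin, or 21 estimated counts against 1 in all, 20.2-fold lower with an exact 95% interval from counting of 3.26 to 837. It was tested only because vehicle replicate 1 reached 10, so it had to be higher in vehicle, and its call (limma adjusted p = 0.016) was lost without vehicle replicate 1 (0.078) and in 2 other alternatives (0.0070 to 0.085 over the 17 that could be run). *4933405E24Rik* was at 87.7, 73.1 and 107 in vehicle and at 34.6, 6.56 and 23.1 in melatonin (log2 fold change −2.26, limma adjusted p = 0.0066). Its log2 fold change was −1.61 without melatonin replicate 2 and −2.72 without melatonin replicate 1. All 3 were low transcripts, at 107 normalized counts or less in every library.

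Levels were also compared between genes after dividing by the length of the canonical transcript, as normalized counts per kb. In vehicle, *Il5* was at 54048 ± 2414 (SD, n = 3), *Csf2* at 7149 ± 447, *Il13* at 1557 ± 86.0 and *Irf1* at 1277 ± 152. *Il4* followed at 561 ± 36.4, *Rad50* at 423 ± 10.6, *P4ha2* at 361 ± 29.3, *Kif3a* at 142 ± 11.4 and *Slc22a5* at 95.4 ± 8.27. No neighbours in this order overlapped in their vehicle libraries. In melatonin the order became *Il5* (32498 ± 5773), *Csf2* (3924 ± 251), *Irf1* (1134 ± 286), *Rad50* (507 ± 40.6) and then *Il13* (339.5 ± 83.6), *P4ha2* (332 ± 85.9) and *Il4* (327 ± 109), with *Kif3a* at 160 ± 18.6 and *Slc22a5* at 114 ± 13.2 still the lowest. *Il13* thus went from the third place to the fifth, below *Irf1* and *Rad50*, and the ranges of *Il13*, *P4ha2* and *Il4* overlapped there.

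Whether the cytokine genes fell in step was read from ratios within each library, which no scaling by 1 factor per library can change beyond the pseudocount. The log2 ratio of *Il13* to *Il5* was −5.44, −5.61 and −5.36 in vehicle and −6.89, −7.31 and −6.62 in melatonin. There were 44.3 reads of *Il5* for each read of *Il13* in vehicle and 123 in melatonin, by the mean of the log2 ratios and not per length. The difference of −1.47 between the groups exceeded the spread within them (SD 0.13 and 0.35). Of the sum of the 4 cytokine genes' counts, *Il13* made up between 1.88% and 2.22% in vehicle and between 0.590% and 0.939% in melatonin.

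The ratio of *Il13* to *Csf2* went from −1.61 ± 0.11 (SD, n = 3) to −2.96 ± 0.25, and that of *Il13* to *Il4* from 2.50 ± 0.14 to 1.12 ± 0.44. Against *Rad50*, which did not fall, the ratio of *Il13* went from −0.25 ± 0.05 to −2.72 ± 0.41. In all of these, the groups did not overlap, and the exact two-sided permutation test gave 0.1, the lowest it can give (0.15 after Benjamini-Hochberg adjustment over the 6 ratios compared), so this test cannot bring a ratio of 3 samples against 3 under 0.05. For *Il5* to *Csf2* the ratio was 3.80, 3.91 and 3.88 in vehicle and 3.76, 4.23 and 3.94 in melatonin. These groups overlapped (difference 0.12, exact two-sided permutation p = 0.6, adjusted 0.6), and a difference of either sign was within the spread of the melatonin libraries. The ratio of *Il5* to *Irf1* went from 4.93 ± 0.14 to 4.38 ± 0.61 (exact two-sided permutation p = 0.2, adjusted 0.24), and it was melatonin replicate 1, at 3.69, that stood apart. Without that library the difference was −0.21 in place of −0.56, and for that library alone it was −1.25.

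**Figure D3:**
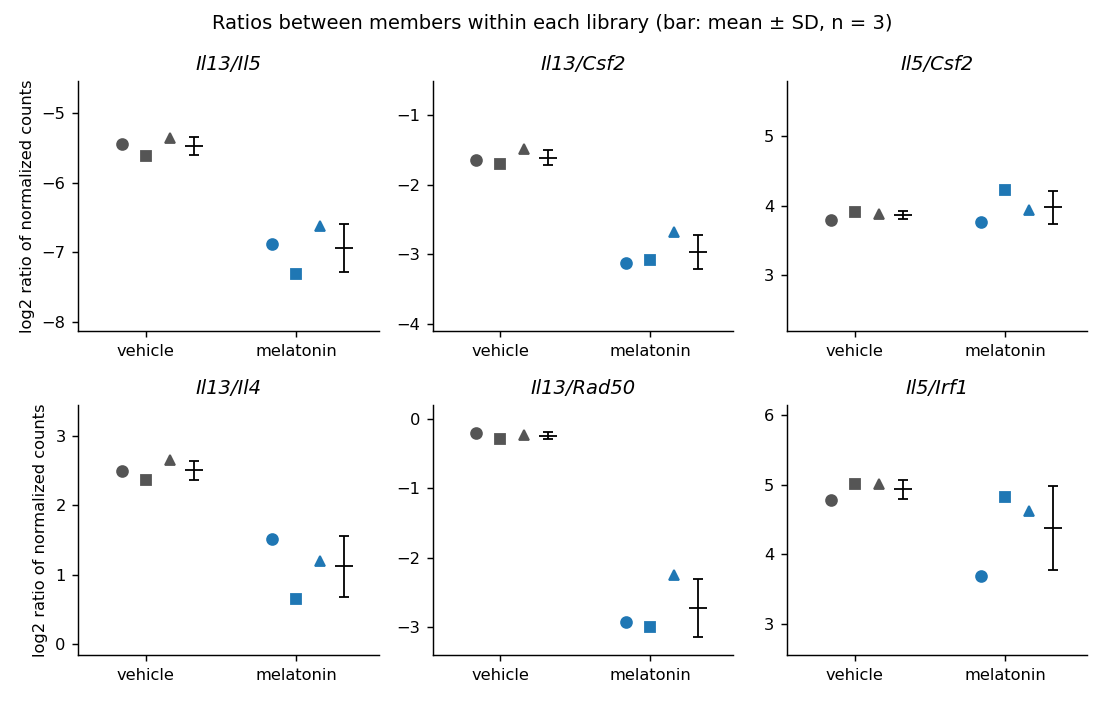
Log2 ratio of the normalized counts (plus 1) of 2 members in each library for the 6 pairs compared, in panels whose axes span the same number of log2 units; circles, squares and triangles are replicates 1, 2 and 3, and bars are the mean ± SD of 3. The 4 panels with *Il13* as numerator show no overlap between melatonin and vehicle, while *Il5*/*Csf2* and *Il5*/*Irf1* overlap.

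Among the 9989 other genes whose mean reached 100 normalized counts, those whose pattern over the 6 libraries was most like that of *Il13* were *Klk8*, *1700097N02Rik* and *Mt1*, by the root mean square difference of log2 values centred per gene (0.15, 0.15 and 0.16). *Mt1*, which encodes a metallothionein, was at 458, 402 and 370.4 normalized counts in vehicle and at 75.6, 86.3 and 146 in melatonin. The closest to *Il5* were *Hspa9*, *Naa25* and *Rrp1b* (0.04 each), and those closest to *Csf2* were *Siva1*, *Eif3h* and *Dcps* (0.04 each). None of the 9 lies on chromosome 11. These are descriptions of likeness over 6 libraries that share 1 contrast, given with no test.

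The list of 21 transcription factors and chromatin proteins known to act on the locus all had values. By limma 7 were lower (33.3% of them) and 3 were higher (14.3%), against 24.7% and 24.5% of all genes tested, with a median log2 fold change of −0.18. Without *Tbx21*, which passed the minimum of 10 only through the vehicle libraries, 6 of 20 were lower. The median was −0.08 with quantile normalization and −0.11 with only genes of a mean of at least 100. *Gata3*, the lineage factor that activates *Il5* and *Il13*, was at 19000.4, 19607 and 19489 normalized counts in vehicle and at 24588, 17890.4 and 18927 in melatonin. The groups overlapped, and its log2 fold change of 0.07 (SE 0.12, limma adjusted p = 0.67) did not pass. Melatonin replicate 1 was the highest of the 6 libraries for *Gata3* and the lowest for each of the 4 cytokine genes, which is 1 library and was not tested.

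*Irf4*, a factor of type 2 cytokine expression downstream of antigen and IL-33 signals, was at 3026, 2728 and 2992 normalized counts in vehicle and at 468, 1249 and 1328 in melatonin. The groups did not overlap, and melatonin replicate 1 was the lowest, as for the cytokine genes. Its log2 fold change was −1.66 (SE 0.34, limma adjusted p = 0.0037), and it was −1.18 without that library. *Tbx21*, which encodes T-bet, the opposing type 1 factor that natural killer cells also express, was at 60.7, 53.4 and 76.6 in vehicle and at 9.34, 5.46 and 4.02 in melatonin (log2 fold change −3.20, SE 0.37, limma adjusted p = 2.7e-04). Only its vehicle libraries reached the minimum value for testing, so a lower value with melatonin was built into its selection. Its p-value is to be read with that limit. The low counts of *Tbx21* moved with those of the natural killer cell markers given earlier, whose part in its fall was not tested.

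In the other direction, *Rora*, a nuclear receptor required for ILC2 development, was at 4546, 4119.8 and 3999.6 normalized counts in vehicle and at 7796, 5759.9 and 6362 in melatonin (log2 fold change 0.64, SE 0.11, limma adjusted p = 0.0020). *Stat6*, the factor that IL-4 and IL-13 activate, was at 3396, 3651 and 3319.7 in vehicle and at 5386, 4880.4 and 4232 in melatonin (log2 fold change 0.48, SE 0.10, limma adjusted p = 0.0041). Neither overlapped between groups. *Mbd2*, a methyl-DNA binding protein known to restrain the locus, was at 358, 389.8 and 446 in vehicle and at 1075, 1454 and 397 in melatonin. Melatonin replicate 3 lay within the vehicle range, and the call (log2 fold change 1.10, limma adjusted p = 0.043) was lost in 11 of 18 alternatives, each vehicle replicate left out and melatonin replicates 1 and 2 left out among them, over a range of p from 3.0e-04 to 0.15. Without melatonin replicate 2 its log2 fold change was 0.72.

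**Figure D4:**
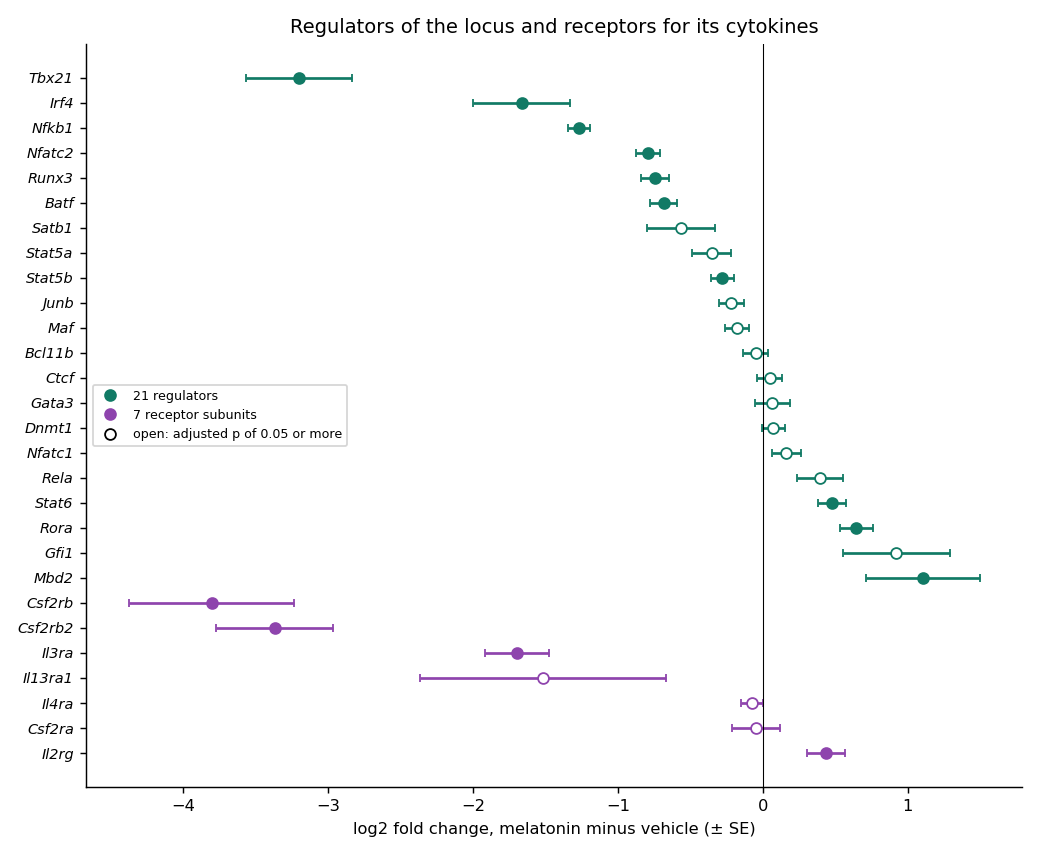
Log2 fold change (melatonin minus vehicle, ± SE from limma) of the 21 regulators of the locus and of the 7 receptor subunits with a value, sorted within each list; filled points have an adjusted p under 0.05. The values run from −3.20 (*Tbx21*) to 1.10 (*Mbd2*) for regulators and from −3.80 (*Csf2rb*) to 0.43 (*Il2rg*) for receptor subunits, with *Gata3* and *Il4ra* near 0. *Tbx21* reached the minimum value for testing only in the vehicle libraries.

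Of the 9 subunits of the receptors for these cytokines, 7 had values; *Il5ra* and *Il13ra2* were not analysed here. By limma 3 of the 7 were lower (42.9%), 1 was higher (14.3%), against 24.7% and 24.5% of all genes tested, and the median log2 fold change was −1.51. That median is the value of *Il13ra1*, at 14.0, 10.3 and 10.5 normalized counts in vehicle and 0, 6.56 and 10.1 in melatonin, which did not pass (limma adjusted p = 0.17). Without melatonin replicate 1 the median was −0.45, with sample weights −0.92, with a pseudocount of 10 −0.53, and over the 5 with a mean of at least 100 it was −0.08. *Il4ra*, the shared chain through which IL-4 and IL-13 signal, was at 3295, 3313 and 3561 normalized counts in vehicle and at 3192, 3395 and 3066 in melatonin. The groups overlapped (log2 fold change −0.08, SE 0.08, limma adjusted p = 0.43). *Il2rg*, the common gamma chain, was at 17317, 17833 and 16961 in vehicle and at 29405, 21709 and 20230.4 in melatonin (log2 fold change 0.43, SE 0.13, limma adjusted p = 0.024). This call was lost in 4 of 18 alternatives, including the 3 without a vehicle replicate (limma adjusted p between 0.063 and 0.083). Over the alternatives other than melatonin replicate 1 alone, the limma adjusted p was between 0.0062 and 0.083. Melatonin replicate 1 was the highest: without it the log2 fold change of *Il2rg* was 0.27, and for that library alone it was 0.76.

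The 3 subunits that fell belong to the receptors for GM-CSF, IL-3 and IL-5. *Csf2rb*, the beta chain shared by these receptors, was at 632, 549 and 552 normalized counts in vehicle and at 13.1, 50.3 and 97.3 in melatonin (log2 fold change −3.80, SE 0.57, limma adjusted p = 8.8e-04). Its log2 fold change was −3.02 without melatonin replicate 1 and −4.43 without melatonin replicate 3. Its paralog *Csf2rb2*, the IL-3-specific beta chain, was at 154, 166 and 155 in vehicle and at 6.54, 21.9 and 20.3 in melatonin (log2 fold change −3.37, SE 0.40, limma adjusted p = 3.2e-04), and since the 2 genes are closely similar copies, how their reads were divided is uncertain. *Il3ra* was at 205, 176 and 209 in vehicle and at 46.7, 56.8 and 80.4 in melatonin (log2 fold change −1.70, SE 0.22, limma adjusted p = 4.5e-04). None of the 3 had overlapping groups, and in each melatonin replicate 1 was again the lowest. Myeloid cells and eosinophils also express these chains. The eosinophil receptor *Ccr3* fell in the same libraries, from between 269.6 and 331 normalized counts in vehicle to between 8.40 and 20.1 in melatonin. The other eosinophil markers with values were low. *Ear2*, at between 18.7 and 28.1 in vehicle and between 4.67 and 16.1 in melatonin, did not pass (limma adjusted p = 0.092). *Siglecf*, at 7.34 or less, and *Ear1*, at 9.44 or less in every library, were not tested. The eosinophil granule genes *Prg2* and *Epx* were not listed, and the myeloid sums are those given earlier. The part of myeloid cells and eosinophils in the differences of the receptor chains was not tested. *Csf2ra*, the alpha chain for GM-CSF, had means of 133 ± 6.17 (SD, n = 3) in vehicle and 129.5 ± 18.9 in melatonin, and did not pass.

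**Figure D5:**
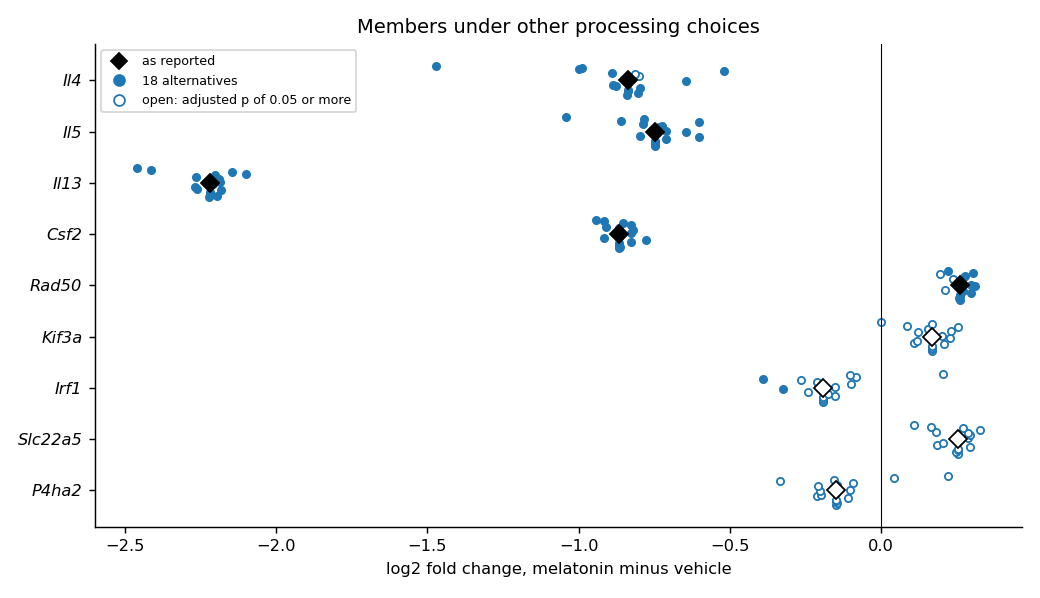
Log2 fold change (melatonin minus vehicle) of each member as reported (diamond) and in 18 alternatives of processing or of samples (circles); open marks have an adjusted p of 0.05 or more. *Il13* stays between −2.46 and −2.10 and *Csf2* between −0.94 and −0.78, whereas the marks of *Kif3a*, *Irf1* and *P4ha2* lie on both sides of 0.

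Across the 18 alternatives, *Il13* kept a log2 fold change between −2.46 and −2.10, *Csf2* between −0.94 and −0.78 and *Il5* between −1.04 and −0.60, and these 3 passed the threshold in all 18. *Il4* was between −1.47 and −0.52 and passed in 15. Among the neighbours, *Rad50* was between 0.20 and 0.31 and passed in 11, *Irf1* between −0.39 and 0.20 and passed in 2, and *Kif3a*, *Slc22a5* and *P4ha2* passed in none. The fall of *Il13*, *Il5* and *Csf2* was thus seen under every setting tried, while the signs of *Kif3a*, *Irf1* and *P4ha2* were not fixed by these data.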

How the data were processed

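RNA of sorted lung aILC2s was sequenced in 3 samples cultured with melatonin and 3 cultured with DMSO. In Partek Flow, the authors trimmed the reads, used STAR for alignment to mm39 and quantified Gencode M33 genes with an expectation-maximization algorithm that can divide a read among genes. The authors removed genes with few counts and deposited a signal per gene, the estimated count divided by a size factor per sample (median ratio method of DESeq2). The kit, SMARTer Ultra Low Input, does not mark the strand. The methods state an input of 10 pg of RNA and the labels 10 ng. Only 64.7% of values were whole multiples of 1 read (tolerance 0.01), so whole reads were not recovered and no count model was the main test. Dividing by the value of 1 read gave the estimated counts, which gave the counting errors and the counting interval, and these cover counting error only.

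Differences were tested with limma 3.58.1 in R 4.3.3 (lmFit, eBayes with trend) on log2 of the value plus 1, with only the treatment in the model, over genes that reached 10 in any sample, with Benjamini-Hochberg adjustment. This scale understates the change of low genes. Data of 14008 genes were simulated at this depth with a spread beyond counting of 9.66%. In them the test recovered 50 of 50 genes with a log2 change of −2, 44 of 50 at −1, 48 of 50 at 1 and 50 of 50 at 2, and 4 of 13808 unchanged genes were called. In melatonin the coefficient of variation was 33.4% for *Il4*, 24.6% for *Il13*, 17.8% for *Il5* and 6.41% for *Csf2*. These rates therefore need not hold for each member. Ratios between members were tested with exact two-sided permutation tests (scipy 1.17.1). Gene positions, lengths and overlaps came from GENCODE on GRCm39, on which 16334 of 16381 genes had a name. One marker gene withheld for evaluation is not reported here. The members and lists were chosen with earlier results of these data known. Named genes were all members, the 3 called neighbours nearest to *Il13* on each side, the called regulators and receptors with the largest and smallest log2 fold changes (at most 4 per list) with *Gata3*, *Stat6*, *Rora* and *Il4ra*, and the 3 genes most like *Il13*, *Il5* and *Csf2*. Alternatives were pseudocounts of 0.1 and 10, no filter, a mean of at least 100, other scalings (same total, quantile, upper quartile), limma without trend or with sample weights, voom on the estimated counts, a replicate block, each sample left out, a threshold of 0.01 and windows of 0.5 and 2 Mb.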

Additional observations from a re-analysis of the deposited data

How the results depend on the processing

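The counts of members, regulators and receptors called lower stayed within 1.5 times under all alternatives tried. The 1 member called higher became 0 with upper quartile scaling, without the trend, with the replicate block and at a threshold of 0.01, and was between 0 and 1 with each sample left out, as the report gives for *Rad50*. Neighbours called lower went from 6 to 3 with only genes of a mean of at least 100 (9 tested) and to 3 at the threshold of 0.01, and to 15 of 49 in a window of 2 Mb. Neighbours called higher went from 2 to 1 with that filter and with a window of 0.5 Mb, and to 9 within 2 Mb. Regulators called higher were between 2 and 4 in the alternatives other than melatonin replicate 1 alone against vehicle, whose calls carry no support. The 1 receptor called higher became 0 without the trend and at 0.01, and was between 0 and 1 with a sample left out. Signs turned for melatonin replicate 1 alone in *Kif3a* (−0.0022), *Irf1* (0.20), *P4ha2* (0.22) and the *Il5*/*Csf2* ratio (−0.10). *Gata3* was at −0.035 with sample weights and between −0.074 and 0.16 with a sample left out, *P4ha2* between −0.34 and 0.043, and the *Il5*/*Csf2* ratio between −0.0088 and 0.23. The cause was not tested.

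Same-numbered samples did not deviate together (correlations of −0.11, 0.14 and −0.19), so the numbers were not taken as pairs. With the replicate number as a block, 3278 genes were lower and 3160 higher against 3565 and 3529, and of the members *Rad50* lost its call (limma adjusted p = 0.059). No scaling moved the median of all genes by more than 0.1. Depth limits the low genes most: *Pdlim4* rests on 1 estimated count in melatonin, and the antisense and other low neighbours on few.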
